A study of Macaca mulatta and Mus musculus with 5 samples.

Results

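The ribosomal protein genes code for the proteins of the cytosolic ribosome. They were taken by symbol: RPL or RPS followed by digits and an optional A, X, L or L1, together with RPLP0 to RPLP2 and RPSA, and without the RPS6K kinases. The rule found 82 of 31017 genes in the mouse table, 1 of them (Rpl10l) with no UMI, and 63 genes in each of the macaque tables, which list 13469 to 14062 genes. All 63 macaque members also have a mouse member of the same symbol, and 19 mouse members have no macaque one. Of the 63, 62 passed the filter on low counts in the tests, and RPL3L, with 4 to 7 UMIs per macaque channel, did not. RPLP0, RPS6, RPL11 and RPS27 were not found among the macaque symbols and were not analysed in that species.

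The data are single-cell 10x 3′-end counts of meninges and spleen, in a study of B-lineage development at the border of the brain. The mouse library pooled hashtag-labelled meningeal cells of C57BL/6 males aged 2, 21 and 48 days, so it has no replicate. The macaque libraries came from female Chinese rhesus macaques aged 4 to 8 years, with 2 channels of meninges and 2 of spleen. Sorting was for CD45–CD11b– cells (mouse) or CD45–CD11b–CD3– cells (macaque) as the labels spell it, yet PTPRC, the gene of CD45, was detected in 82.1 to 87.9% of kept cells, and T cell gates were filled in both species. Macaque channels are treated as the replicates. The labels do not say whether channels of a tissue hold different animals, so the spread between channels behind the p-values may be technical. For pairs within a channel, it is the spread of the within-channel differences.

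Kept cells numbered 13268 in mouse, 4032 and 4264 in the meningeal channels and 5839 and 6781 in the spleen channels. Median UMIs per cell were 6394 in mouse, 4083 and 4020 in macaque meninges and 2404 and 2667 in spleen, with 19.02 to 21.99 M UMIs per macaque table and 128.1 M in mouse (M, mega). Cells under 1000 UMIs numbered 365 and 425 in meninges and 2069 and 1572 in spleen. Stromal and vascular markers summed to 134 to 292 CPM (UMIs per M UMIs) in macaque meninges and 52.1 to 54.5 in spleen, and the part of these cells in the tissue differences was not tested. Any pair of libraries shared 4 to 28 barcodes. Cells were put into classes by marker UMIs alone, with no ribosomal protein gene in any gate, and a class name stands for its gate.

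A eukaryotic ribosome joins a small subunit, which reads the message and holds the RPS proteins, to a large subunit, which forms the peptide bond and holds the RPL proteins. RPLP1 and RPLP2 form the stalk that recruits elongation factors, and cells need nearly all of these proteins in equal amounts. The mRNAs typically start with a C and then a run of pyrimidines, the 5′ terminal oligopyrimidine (TOP) tract, through which LARP1 and mTOR signalling set their translation and storage. In lymphocytes their output is known to change with growth, division and antibody secretion, and a few members have paralogues (RPL22L1, RPS27L, RPL3L, RPL7L1, RPL39L, RPL10L) that are used unevenly between cell types.

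The first 20 bases of the annotated mouse transcripts (GENCODE M21, build GRCm38) show how the tract looks in members named below. Capitals mark a run of pyrimidines that starts with C at the first base, and lower case the rest of the 5′ end, which lies in exon 1. The first 4 genes carry the run. The 2 paralogues after them do not, which they share with most members, Rpl22 and Rps27 included. In Rps27l, Rpl22 and Rps27 a run of at least 5 pyrimidines that begins with C follows directly after the first base. Rpl22l1 has no such run in its 20 bases.
Rps24, chr14:24490718-24490737, plus strand: CTCTTTTCCTCCTCTCCagc
Rpl32, chr6:115808728-115808747, minus strand: CTTCCTTCTTCCTCggcgct
Rpl37a, chr1:72711290-72711309, plus strand: CTCTTCggacttgggcttgg
Rps21, chr2:180257377-180257396, plus strand: CCCTCCTgcccaatagtgct
Rpl22l1, chr3:28805469-28805488, plus strand: gcacgtttttatataaaagc
Rps27l, chr9:66946086-66946105, plus strand: gcctctatcccggaagttgc
A run of at least 5 pyrimidines that begins with C stood at the first annotated base of 10 of 82 members (12.2%) and of 515 of 21771 protein-coding genes (2.37%). Anywhere in the first 20 bases, on the transcript's strand, it was found in 35 members (42.7%) and in 24.4% of all protein-coding genes. Start sites are the annotated ones and were not measured here, and a match is a description of letters, not of use.

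Ribosomal protein mRNA made up 14.2 to 30.1% of the UMIs of every class with at least 50 cells, and the order of the classes differed between the species. Over all kept cells the share was 25.0% in mouse, 22.6 and 22.9% in the meningeal channels and 25.5 and 26.7% in the spleen channels. Mature B cells were gated by MS4A1 without RAG genes, with at most 1 germinal centre gene and 2 plasma cell genes detected. They held the most in macaque by summed UMIs: meningeal channels at 26.2 and 26.3%, spleen channels at 28.1 and 29.9%. Germinal centre B cells held 24.2 and 24.6% in the meningeal and 23.5 and 23.8% in the splenic channels. Cytotoxic lymphocytes, T or NK cells with granule genes, held 21.5 and 21.6% and 20.9 and 21.2% in the same order. Early B cells, gated by RAG1, RAG2, DNTT or VPREB1, held 19.8 and 20.5% in meninges. The spleen channels had only 3 and 1 cells in that gate. Plasma cells, which secrete antibody, held 16.4 and 16.3% (meninges) against 14.3 and 14.2% (spleen), and meningeal myeloid cells 14.8 and 14.95%. Channels of 1 tissue lay within 2 percentage points of each other in these classes, while other T cells in spleen stood at 24.1 and 28.5% from 28 and 27 cells.

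In the mouse library the share was 30.1% in innate lymphoid cells, 29.5% in cytotoxic lymphocytes, 27.5% in mature B cells and 27.0% in other T cells. Along the B lineage it was 25.8% in pro-B and large pre-B cells, 20.1% in small pre-B cells, 20.3% in cells with both Rag and Ms4a1 UMIs, 22.7% in immature B cells and 27.5% in mature B cells. Plasmacytoid dendritic cells held 21.5%. The exact 95% interval of each of these shares was within 0.1 percentage points of the value and covers counting error only, so differences between mouse classes have no replicate check. By summed UMIs the cytotoxic class stood below the mature B class in all 4 macaque channels and above it in the mouse library. As the median share per cell, spleen channel 1 had the other order, with 14.44% in mature B cells, 17.35% in cytotoxic lymphocytes and 22.42% in germinal centre B cells. The species shares count different sets of genes: with only the 63 shared symbols the mouse share was 19.6%, not 25.0%.

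**Figure D1:**
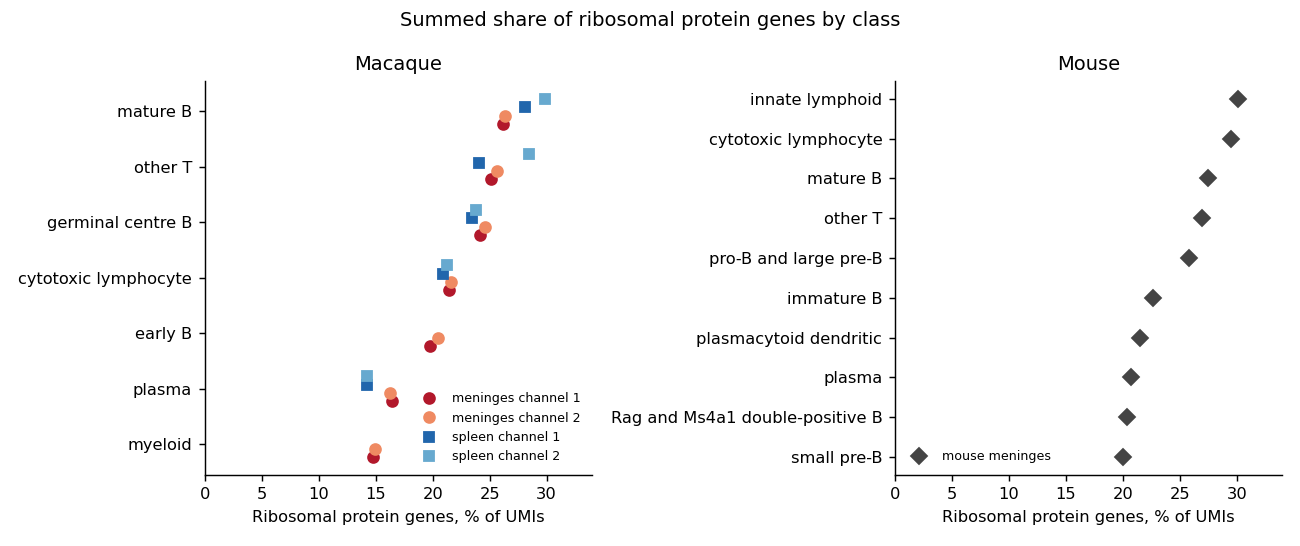
Summed share of ribosomal protein genes (x axis, % of UMIs) in each marker-gated class with at least 20 cells, 1 point per library: macaque channels on the left, the single mouse library on the right. Mature B cells lead in macaque at 26.2 to 29.9% and plasma cells stand at 14.2 to 16.4%, while innate lymphoid cells lead in mouse at 30.1%.

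Cycling cells, with at least 3 of 12 cell cycle genes detected, were compared with resting cells, with none, of the same class and channel. In germinal centre B cells, which divide rapidly in lymphoid follicles, ribosomal protein mRNA was a smaller share of UMIs in cycling cells of every channel. A share is not an amount per cell, and the cycling cells were deeper. Their median UMIs were 11440, 10773.5, 9324 and 7353, against 5445, 5169, 5143 and 4136 in resting cells, in the channel order given next. The share was 20.5, 20.1, 20.9 and 21.6% in cycling and 27.1, 27.7, 25.9 and 25.9% in resting cells of meninges channels 1 and 2 and spleen channels 1 and 2. The states did not overlap, and the mean within-channel difference was -5.92 percentage points (SD 1.48, n = 4 channels). An exact permutation test of 4 pairs cannot go below p = 0.13, of 2 pairs not below 0.5 and of 2 against 2 channels not below 0.33, so summed shares are given here with their spread and without a p-value. Cytotoxic lymphocytes were compared in the meningeal channels, a comparison added after the data were seen. Their cycling cells held 17.5 and 16.7% and their resting cells 22.2 and 22.3%, a difference of -5.18 percentage points (SD 0.573, n = 2).

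Early B cells had the higher share when cycling, if all cells were summed. Cycling early B cells of the meningeal channels held 21.0 and 21.7%, resting ones 18.8 and 19.3%, a difference of 2.32 percentage points (SD 0.228, n = 2). Cycling early B cells were also much deeper, with median UMIs of 11652 and 11759 against 2817 and 2763 in resting cells, whereas cycling and resting cytotoxic cells had 5380 and 5254 against 3571 and 3517. Among cells with 5000 UMIs or more and under 10000, an added check, the early B difference turned to -4.48 percentage points: 17.1% in 10 cycling cells against 23.4% in 11 resting cells of channel 1, and 21.7% in 8 against 24.4% in 9 cells of channel 2. In the same depth range the germinal centre difference was -8.99 percentage points, with 17.9, 15.4, 20.9 and 21.8% in cycling and 28.7, 28.8, 27.0 and 27.4% in resting cells, from 5, 5, 84 and 124 cycling cells. Meningeal cytotoxic lymphocytes held 18.1 and 16.6% when cycling and 25.5 and 26.2% when resting. In spleen channel 2 the values were 24.17 and 24.08%, from 5 cells each. The part of depth in the cycling gate, which counts detected genes, was not tested.

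In the mouse library the difference also varied with depth. Cycling pro-B and large pre-B cells held 27.0% against 22.6% in resting ones, with median UMIs of 18732 and 5767. At 5000 to 10000 UMIs the values were 20.4% in 93 cycling and 22.2% in 349 resting cells, and at 10000 UMIs or more 27.3% in 672 and 27.1% in 41 cells. Small pre-B cells held 19.1% when cycling and 20.6% when resting, and 18.4 and 20.9% in the 5000 to 10000 range. Cycling mouse cytotoxic lymphocytes held 28.5% and resting ones 29.7%, and 24.9 and 27.5% in that range.

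**Figure D2:**
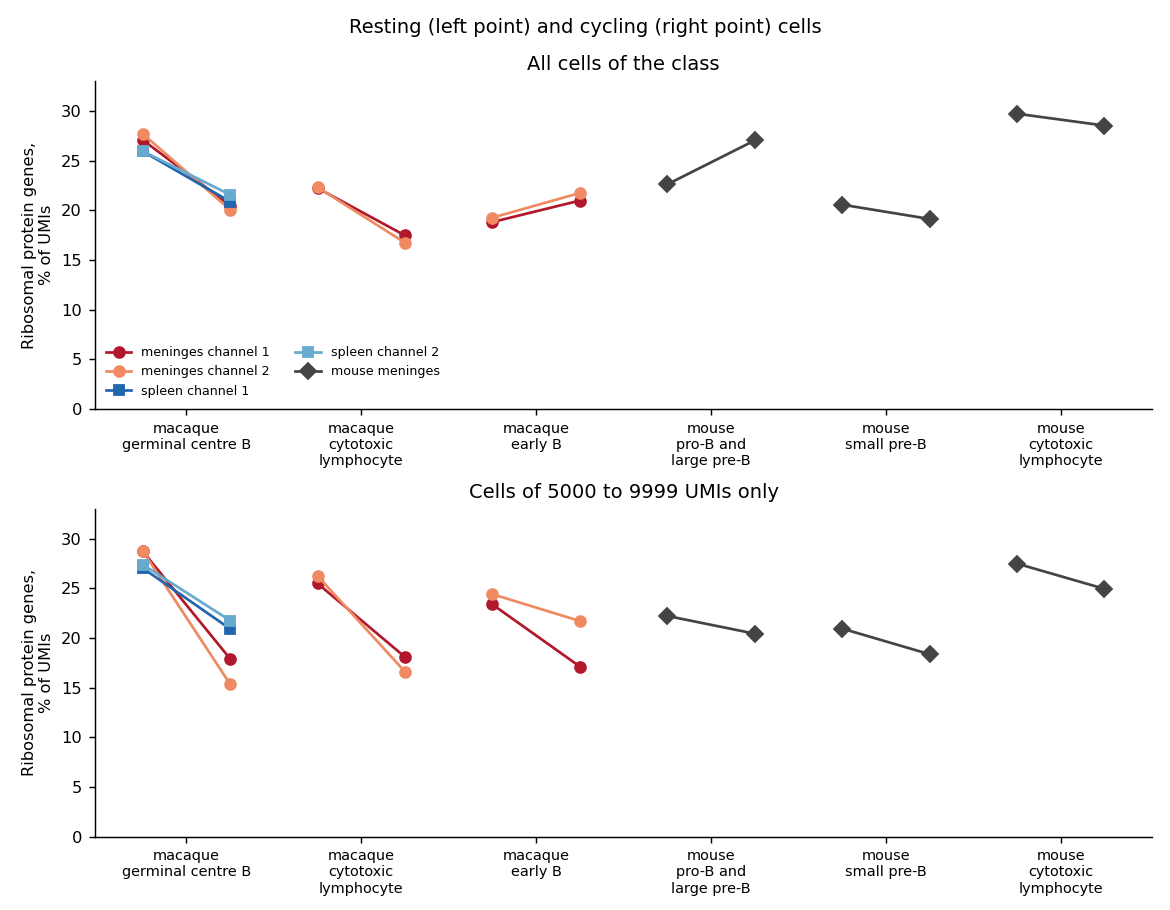
Summed share of ribosomal protein genes (y axis, % of UMIs) in resting and cycling cells, joined per library, with all cells above and only cells of 5000 to 10000 UMIs below. Germinal centre B cells of all 4 channels and meningeal cytotoxic lymphocytes are lower when cycling in both panels, and early B cells rise above (18.8 to 21.0% and 19.3 to 21.7%) and fall below (23.4 to 17.1% and 24.4 to 21.7%).

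Single members were tested with edgeR's quasi-likelihood test on UMI sums per channel, with TMM scaling and Benjamini-Hochberg adjustment over all genes tested, threshold 0.05, and levels are given as TMM-scaled CPM. Shares of all genes passing belong to TMM scaling with cells of every depth, unless another setting is named. Counts of members under another scaling or depth range, where no such share is printed, are not set against genes at large. In cycling germinal centre B cells 51 of 62 members fell and 2 rose, where 34.5% of all genes tested passed (18.7% higher and 15.8% lower). The median log2 fold change was -0.38 over members and -0.004 over all genes. RPS27A, which is made as a ubiquitin fusion, stood at 6063, 6015, 6917 and 7611 CPM in cycling and 14266, 13922, 11954 and 12484 in resting cells of the 4 channels. Every cycling value lay below every resting value, and the log2 fold change was -0.98 ± 0.09 (SE). RPS24, a small-subunit protein whose loss causes Diamond-Blackfan anaemia, stood at 1554, 1683, 1423 and 1485 against 3631, 3612, 2486 and 2593, a log2 fold change of -0.97 ± 0.10. RPS23, at the decoding centre of the small subunit, fell by 0.76 ± 0.10 and RPL12, at the base of the stalk, by 0.72 ± 0.10 on the log2 scale. RPL30, RPS26 and RPL10 fell by 0.58 to 0.61. The stalk gene RPLP1 fell by 0.46 ± 0.08 and RPLP2 by 0.29 ± 0.08, RPSA, also a laminin receptor precursor, by 0.39 ± 0.08, RPS4X by 0.34 ± 0.08 and RPL5, part of the 5S particle that restrains MDM2, by 0.28 ± 0.09.

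RPS27L and RPL7L1 were the members that rose. RPS27L, a p53-responsive paralogue of RPS27, stood at 184, 158, 222 and 226 CPM in cycling and 77.6, 116, 158 and 145 in resting germinal centre cells, higher in cycling cells of every channel (log2 fold change 0.63 ± 0.14, adjusted p = 0.00104 by edgeR). RPL7L1, a low-level relative of RPL7, rose by 0.44 ± 0.17. RPL22L1, paralogue of RPL22, stood at 773, 754, 777 and 795 against 815, 925, 758 and 673, with overlapping states and a log2 fold change of -0.0041 ± 0.11, while RPL22 fell by 0.41 ± 0.09. The 9 members that did not pass were RPL22L1, RPL27A, RPL3, RPL31, RPL39, RPL4, RPL7, RPS2 and RPS9. At 5000 to 10000 UMIs 52 of 62 members fell and 0 rose, with RPS27A at -1.32 ± 0.25, RPS24 at -1.06 ± 0.21, RPS23 at -1.11 ± 0.23 and RPL12 at -1.19 ± 0.23. The share of all genes falling in that depth range is not given beside this count. RPS27L was then at 0.49 ± 0.18 (adjusted p = 0.0687 by edgeR) and RPL7L1 at 0.60 ± 0.25 (adjusted p = 0.115).

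In meningeal cytotoxic lymphocytes 54 of 62 members fell with cycling and 0 rose, where 11.1% of all genes passed (6.13% higher and 4.95% lower), and the median was -0.52 against -0.02 over all genes. RPS24 stood at 1707 and 1663 CPM in cycling and 3227 and 3309 in resting cells (log2 fold change -0.96 ± 0.09), and RPL30 at 2669 and 2698 against 4759 and 4958 (-0.86 ± 0.08). RPS28, RPS14, RPL37A, RPS27A, RPL10A and RPL22 fell by 0.74 to 0.81. RPS27L was at 282 and 374 in cycling and 233 and 232 in resting cells, a log2 fold change of 0.50 ± 0.16 that did not pass (adjusted p = 0.0507 by edgeR). With 12 and 16 cycling cells at 5000 to 10000 UMIs, 4 of 61 members fell and 0 rose where 124 of 1694 genes passed, 36 had an unadjusted p under 0.05 by edgeR, and the median was -0.61.

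In cycling early B cells 49 of 62 members rose and 3 fell over all cells, where 33.2% of all genes passed (19.7% higher and 13.6% lower), and the median was 0.42 against 0.02 over all genes. RPS2, at the messenger entry channel, stood at 3265 and 3346 CPM in cycling and 1472 and 1491 in resting cells, a log2 fold change of 1.16 ± 0.06. RPL3, which lies near the peptidyl transferase centre, stood at 4767 and 4499 against 2375 and 2193 (1.02 ± 0.06), and RPL32 at 6047 and 6476 against 3292 and 3314 (0.92 ± 0.05). RPL35, RPLP2, RPS14, RPS15 and RPS20 rose by 0.71 to 0.90. RPS27A and RPS26 were among those that fell, each by 0.22. At 5000 to 10000 UMIs 0 of 61 members passed as higher and 4 as lower, 14 had an unadjusted p under 0.05 by edgeR, and the median was -0.29. RPS2 was then at -0.24 ± 0.23, RPL3 at -0.32 ± 0.19 and RPL32 at -0.07 ± 0.16, while RPS27A was at -0.53 ± 0.17. Those values rest on 8 to 11 cells per channel and state. The resting cells in the range were 11 of 196 and 9 of 174 of the class, so few calls can be made and they are its deep cells.

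The change with cycling was compared between classes in the meningeal channels, by an interaction of class and state in edgeR. Against germinal centre B cells 59 members had the higher change in early B cells and 0 the lower, where 8.14% of all genes passed (5% higher and 3.14% lower), with a median of 0.87 over members and 0.06 over all genes. Against cytotoxic lymphocytes the counts were 59 and 0, where 9.71% of all genes passed (7.1% higher and 2.61% lower). At 5000 to 10000 UMIs 0 members passed against germinal centre B cells, with 34 at an unadjusted p under 0.05, and 6 against cytotoxic lymphocytes. The medians over members were then 0.71 and 0.52, against 0.87 and 0.97 with all cells, and 2 of 1494 and 39 of 2098 genes passed. Both interactions were added after the data were seen, and they share the early B cells.

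Meninges and spleen were compared within each class, and the counts of members called varied with the depth of the cells and the scaling. In mature B cells the share was 26.3 ± 0.0978% in meninges and 29.0 ± 1.26% in spleen (SD, n = 2 channels), a difference of -2.73 percentage points without overlap. As the median share per cell the channels stood at 24.65 and 24.9% in meninges and 14.44 and 27.63% in spleen. The tissues then overlapped, and the mean difference of 3.74 percentage points rested on spleen channel 1. Mature B cells under 1000 UMIs made up 8.01 and 8.69% of the class in meninges and 39.99 and 25.8% in spleen, and held only 3.65, 4.21, 8.56 and 8.79% ribosomal protein UMIs. Mitochondrial genes took 1.17 to 1.74% of UMIs in these cells and 0.221 to 0.257% in mature B cells of 5000 to 10000 UMIs. At 2000 to 5000 UMIs the shares were 25.3, 25.8, 29.3 and 30.9%, and at 5000 to 10000 UMIs 27.7, 27.4, 33.6 and 34.7%, a difference of -6.56 percentage points. Mouse mature B cells held 27.6, 27.6 and 26.8% at 2000 to 5000, 5000 to 10000 and 10000 or more UMIs.

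**Figure D3:**
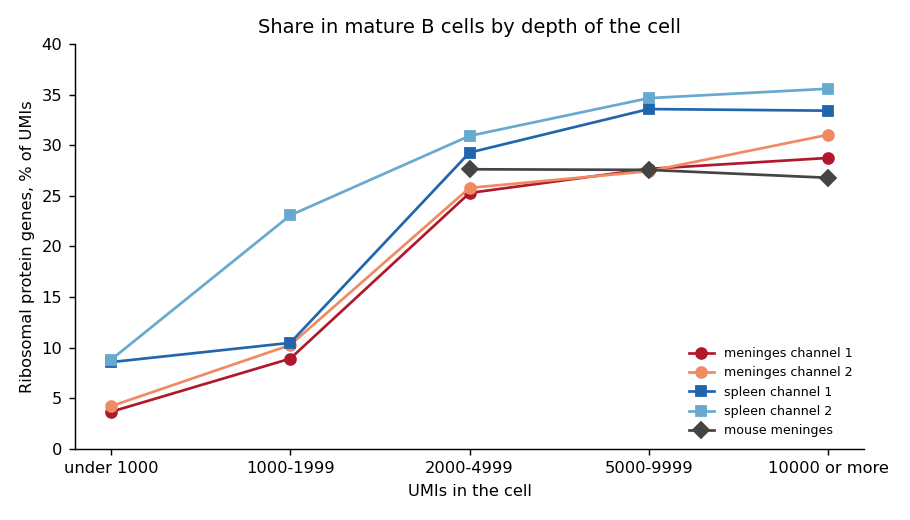
Share of ribosomal protein genes (y axis, % of UMIs) in mature B cells by the number of UMIs in the cell (x axis, 5 ranges), 1 line per library. In all 4 macaque channels the share is lowest under 1000 UMIs (3.65 to 8.79%), and from 2000 UMIs up the spleen lines lie above the meningeal ones.

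With TMM scaling of all mature B cells, 6 of 62 members were higher in meninges and 0 lower, where 39.8% of all genes passed (21.9% higher and 17.9% lower). Scaled to all UMIs, 5 were higher and 32 lower, and the median of all genes moved from -0.01 to -0.11. At 5000 to 10000 UMIs 0 were higher and 48 lower, with a median of -0.36 against -0.01 over all genes. For neither setting is the share of all genes passing given, so these counts are not set against genes at large. The 6 were RPS21, RPS29, RPL37A, RPL36, RPL35 and RPL31, and 0 to 53 members passed when 1 channel was left out: 1 and 0 without meninges channels 1 and 2, 53 and 32 without spleen channels 1 and 2. RPS21 stood at 1778 and 2096 CPM in meninges and 1402 and 1497 in spleen (log2 fold change 0.42 ± 0.10, adjusted p = 0.00395 by edgeR). RPS29 stood at 4984 and 5872 against 4224 and 4092 (0.38 ± 0.12). At matched depth these were at 0.10 ± 0.07 and 0.14 ± 0.07 and did not pass, while RPL12, RPL28 and RPS27A were lower in meninges by 0.53, 0.51 and 0.49 and RPL22L1 by 0.72.

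Over all cells 4 members were higher in meninges (RPS21, RPS27L, RPS29 and RPL36) and 10 lower, where 58% of all genes passed (31% higher and 26.9% lower). With scaling to all UMIs 8 were higher and 41 lower, and the share of all genes passing under it is not given. Leaving out meninges channels 1 and 2 gave counts of 4 and 2, and leaving out spleen channels 1 and 2 gave 49 and 39. RPL22L1 stood at 421 and 451 CPM in meninges and 633 and 677 in spleen (log2 fold change -0.59 ± 0.07), and RPS27A at 8542 and 8822 against 11792 and 13443 (-0.54 ± 0.14). The tissues did not overlap for either gene. RPL28, RPL8, RPL7A, RPL12 and RPL15 were lower by 0.31 to 0.45, and RPL7 and RPL7L1 also passed. The tissues differ in the mix of classes: mature B cells were 31.3 and 32.7% of kept meningeal and 65.0 and 64.8% of kept spleen cells, and cytotoxic lymphocytes 34.4 and 34.5% against 7.09 and 7.49%.

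Germinal centre B cells had nearly equal shares in the tissues, 24.4 ± 0.312% in meninges and 23.6 ± 0.188% in spleen. Of 62 members 10 were higher and 1 lower in meninges, where 9.19% of all genes passed (5.47% higher and 3.71% lower), with 12 and 2 after scaling to all UMIs and 15 and 0 at 5000 to 10000 UMIs. RPS21 stood at 1383 and 1740 CPM in meninges and 1012 and 1018 in spleen (0.62 ± 0.09), and RPS24 at 2638 and 2784 against 1976 and 2064 (0.42 ± 0.07). RPS29, RPL35, RPL36, RPS28, RPL37A and RPL39 were higher by 0.34 to 0.45. At matched depth RPS21 was at 0.72 ± 0.09 and RPS24 at 0.58 ± 0.07. RPS27L was the member lower in meninges, at 133 and 130 against 181 and 183 (-0.47 ± 0.11), and at matched depth it was at -0.49 ± 0.15 and did not pass (adjusted p = 0.1 by edgeR).

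In plasma cells 32 of 62 members were higher in meninges and 0 lower, where 9.3% of all genes passed (7.25% higher and 2.04% lower), and the median was 0.48 against -0.02 over all genes. With scaling to all UMIs 17 were higher and 0 lower, the median of all genes moving to -0.36 and that of members to 0.13. RPS28 stood at 3307 and 3233 CPM in meninges and 1575 and 1692 in spleen (log2 fold change 1.0 ± 0.12), RPL37 at 3752 and 3893 against 1830 and 2070 (0.97 ± 0.13), and RPS14 at 4035 and 3496 against 1930 and 2008 (0.94 ± 0.13). RPL35, RPS21, RPL37A, RPL30 and RPL18 were higher by 0.82 to 0.91. Plasma cells numbered 72, 86, 79 and 106, and median UMIs were 10006 and 10348 in meninges against 6945 and 6255 in spleen. Without meninges channel 1 the count was 16, and a test at 5000 to 10000 UMIs was not possible with under 50 cells in a channel.

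In cytotoxic lymphocytes 44 of 62 members were higher in meninges and 0 lower, where 32.2% of all genes passed (18.6% higher and 13.5% lower). Scaling to all UMIs turned this into 17 higher and 14 lower, beside 998 higher and 2665 lower of 9330 genes, the median of all genes moving from -0.01 to -0.27, and cells of 2000 UMIs or more gave 23 higher and 3 lower. The shares were 21.5 ± 0.106% in meninges and 21.1 ± 0.239% in spleen, a difference of 0.491 percentage points that was -1.07 among cells of 2000 UMIs or more. RPS27L stood at 252 CPM in both meningeal channels and 126 in both spleen channels (log2 fold change 1.0 ± 0.09, and 0.74 ± 0.09 scaled to all UMIs). RPS28 stood at 3789 and 4001 against 2153 and 2087 (0.88 ± 0.06, and 0.62 ± 0.06). RPS21, RPS29, RPL39, RPL37, RPL37A and RPS24 were higher by 0.58 to 0.79. The tissue difference itself differed between mature B cells and cytotoxic lymphocytes for 56 members, all lower in the mature B term, where 13.8% of all genes passed this interaction in edgeR (5.69% higher and 8.12% lower). With scaling to all UMIs 35 members passed, and at 5000 to 10000 UMIs 0 of 62, with 20 at an unadjusted p under 0.05. The median over members was -0.36 with all cells and -0.42 in that range, where 175 of 9234 genes passed and the spleen channels held 18 and 12 cytotoxic cells.

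The small members stood to the meningeal side of the long ones in every class compared. Among 62 members the 20 with the shortest mouse coding sequence (at most 396 bases) had a median tissue log2 fold change of 0.21 in mature B cells, and the 20 longest (at least 588 bases) one of -0.10. The medians were 0.21 and -0.06 in germinal centre B cells, 0.69 and 0.40 in plasma cells and 0.50 and 0.19 in cytotoxic lymphocytes. Spearman's rho between fold change and coding length across the 62 members was -0.61 in mature B, -0.64 in germinal centre B, -0.47 in plasma and -0.62 in cytotoxic cells, and 0.13 for cycling germinal centre, -0.06 for cycling early B and 0.24 for cycling cytotoxic cells. Members share the libraries and are not independent, so these are descriptions. The mouse lengths stand in for those of macaque, and whether the order comes from the libraries or from the cells cannot be told apart, since each tissue was a separate set of channels.

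**Figure D4:**
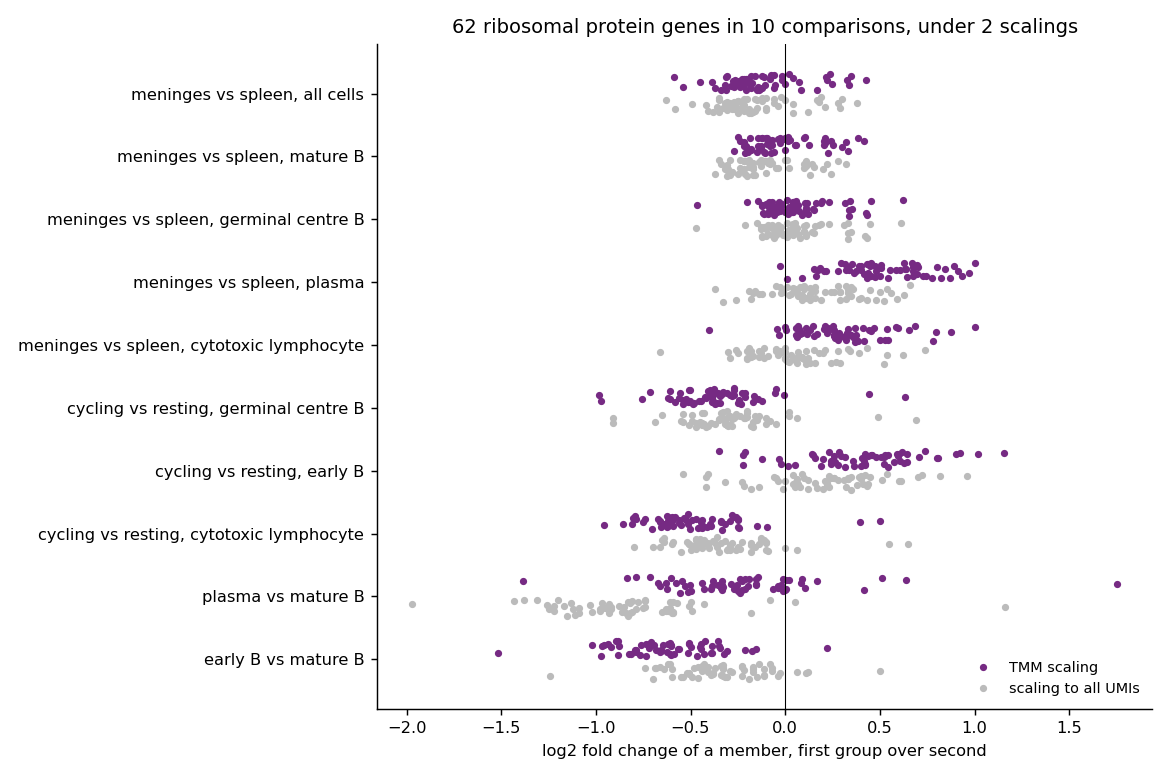
Log2 fold change (x axis) of each tested member in 10 comparisons (y axis), 1 point per gene, with TMM scaling in purple and scaling to all UMIs in grey. The clouds keep their side for cycling germinal centre B cells (median -0.38 and -0.31) and shift across zero for meningeal against splenic cytotoxic lymphocytes (44 higher and 0 lower, against 17 and 14).

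Plasma cells were compared with mature B cells of the same channel. Their share was lower in every channel, 15.3 ± 1.22% against 27.6 ± 1.74% (SD, n = 4), a difference of -12.3 percentage points. With TMM scaling 17 of 62 members were lower in plasma cells and 4 higher, where 46.4% of all genes passed (22.9% higher and 23.5% lower). Scaled to all UMIs, 58 were lower and 1 higher, but the median of all genes also moved, from -0.09 to -0.68. The share of all genes passing under that scaling is not given, so those counts are not set against genes at large. Without spleen channel 1 the count by TMM was 7, and without spleen channel 2 it was 9. RPS27L rose under both scalings: 318, 389, 275 and 336 CPM in plasma and 103, 103, 88.9 and 94.0 in mature B cells, a log2 fold change of 1.75 ± 0.13 (1.16 ± 0.16 scaled to all UMIs and 1.60 ± 0.20 at 5000 to 10000 UMIs). RPS27A stood at 5241, 5033, 3656 and 4213 against 10725, 10799, 11851 and 13671 (-1.38 ± 0.20). RPL30, RPL23, RPL10A, RPL28, RPL12, RPL6 and RPS26 fell by 0.62 to 0.84. RPLP1, RPL24 and RPL22L1 passed as higher with TMM, by 0.64, 0.51 and 0.41, and with scaling to all UMIs RPLP1 was at 0.05 ± 0.14 and RPL22L1 at -0.18 ± 0.14.

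Early B cells were compared with mature B cells in the meningeal channels. The share was 20.1 ± 0.523% against 26.3 ± 0.0978% (SD, n = 2), a difference of -6.11 percentage points, and 60 of 62 members were lower and 0 higher, where 49.2% of all genes passed (23.4% higher and 25.8% lower). Scaling to all UMIs gave 52 lower and 2 higher, and cells of 5000 to 10000 UMIs 50 lower and 0 higher, from 33 and 28 early B cells. The share of all genes passing in those settings is not given, so the counts are not set against genes at large. RPS27A stood at 4914 and 5013 CPM in early and 14100 and 14264 in mature B cells (log2 fold change -1.51 ± 0.04), and RPS18 at 5049 and 5306 against 10453 and 10541 (-1.02 ± 0.04). RPS15, RPL12, RPL35, RPS16, RPL10A and RPL13 fell by 0.89 to 0.97. RPL7L1 and RPS27L did not pass. The fit had 1 residual degree of freedom and an infinite prior, so its p-values are not printed.

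RPS27L and RPL22L1 were also followed as ratios to another member within each class. RPS27L is set here against RPS27A, an abundant member that is not its paralogue, because RPS27 was not analysed in macaque. RPS27A itself was lower in plasma and in cycling germinal centre cells (log2 fold changes -1.38 and -0.98, beside 1.75 and 0.63 for RPS27L), so the ratio holds both changes. For each 100 RPS27A UMIs there were 0.961, 0.954, 0.750 and 0.687 RPS27L UMIs in mature B cells of the 4 channels and 6.06, 7.73, 7.53 and 7.97 in plasma cells. In germinal centre B cells the ratio was 0.544, 0.835, 1.32 and 1.16 when resting and 3.03, 2.62, 3.21 and 2.97 when cycling, without overlap. Meningeal cytotoxic lymphocytes had 3.42 and 3.35 when resting and 6.93 and 9.61 when cycling. In mouse, where both paralogues are listed, there were 10.6 Rps27l UMIs per 100 Rps27 UMIs in cycling and 3.69 in resting pro-B and large pre-B cells, 6.50 and 2.57 in small pre-B cells and 5.63 and 1.71 in cytotoxic lymphocytes. Whether Rps27l rose or Rps27 fell was not tested in this single library. Cycling cells were also deeper, with median UMIs of 18732 against 5767 in pro-B and large pre-B cells.

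**Figure D5:**
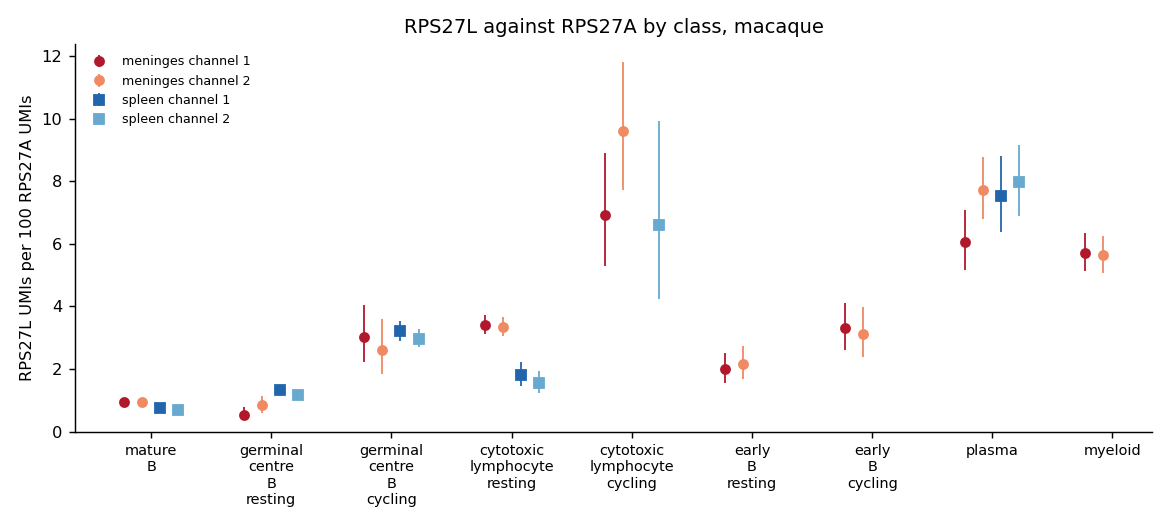
RPS27L UMIs per 100 RPS27A UMIs (y axis) by macaque class and cell cycle state (x axis), 1 point per channel with exact 95% intervals that cover counting error only. Plasma cells (6.06 to 7.97) stand above mature B cells (0.687 to 0.961), and cycling germinal centre cells (2.62 to 3.21) above resting ones (0.544 to 1.32), in comparisons where RPS27A itself fell.

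RPL22L1, which can replace RPL22 in the large subunit, showed another order. Per 100 RPL22 UMIs there were 10.3 and 10.8 RPL22L1 UMIs in meningeal and 13.1 and 13.2 in splenic cytotoxic lymphocytes, 23.6, 24.3, 28.1 and 28.3 in mature B cells, and 35.8, 39.3, 36.8 and 33.8 in germinal centre B cells. Plasma cells had 33.3, 47.8, 66.8 and 54.5. Cycling germinal centre cells had 46.5, 39.9, 45.0 and 41.9 and resting ones 32.6, 38.0, 33.3 and 28.9, higher when cycling in each channel. In that comparison RPL22 fell while the states overlapped for RPL22L1, so the higher ratio is not a rise of RPL22L1. Mouse ratios lay between 33.6 in small pre-B cells and 43.3 in plasmacytoid dendritic cells, with 36.3 in cytotoxic lymphocytes. The other paralogues were scarce: Rpl3l had 550 UMIs and Rpl39l 255 in all mouse cells, against 259146 for Rpl3 and 624853 for Rpl39. Small-subunit genes held 43.8 to 47.1% of member UMIs in every macaque class and state shown, and 44.7 to 46.7% in mouse classes.

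Members differed in how evenly they were spread over the mouse classes. Over 77 members and 9 classes with at least 50 cells, the median coefficient of variation of a member's part of all member UMIs was 9.35%. Rpl31 varied most (66.9%), from 0.339% of member UMIs in cytotoxic lymphocytes to 1.43% in plasmacytoid dendritic cells. Rpl28 (33.6%) ran from 0.730% in other T cells to 1.82% in small pre-B cells, and Rpl10 (30.0%) from 0.903% in cytotoxic lymphocytes to 2.04% in plasmacytoid dendritic cells. Rplp1 (28.2%) ran from 1.24% in small pre-B cells to 2.998% in innate lymphoid cells. These are values of 1 library, and members with near-identical pseudogene copies depend on how such reads were counted.

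The highest members differed between the species. Levels are CPM without TMM scaling, from 3′ tags that count a molecule once whatever its length. In macaque they were RPS27A (10660), RPS18 (8886), RPL10 (8284) and RPLP1 (7483), means of 4 channels, and in mouse Rps24 (6317), Rps29 (6158), Rps27 (5313), Rpl39 (5027) and Rpl41 (5010). Spearman's rho across the 63 shared symbols was 0.455 between mouse and macaque meninges, and 0.958 between macaque meninges and spleen. Leaving out RPL3L, with 4 to 7 UMIs per macaque channel, RPL13A showed the greatest gap, at 529 in mouse and 4820 in macaque meninges, and RPL39 the reverse, at 5027 and 2018. References and copy genes differ between the species, and their part in these gaps was not tested.

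Other genes of the ribosome moved partly with the members. Among ribosome parts outside the symbol rule, RACK1, a scaffold on the small subunit, fell in cycling germinal centre B cells by 0.51 ± 0.09. Of 17 elongation and other TOP factors, 8 fell and 2 rose in these cells, beside 15.8% of all genes lower and 18.7% higher, with EEF1D, an exchange factor of elongation factor 1, at -0.83 ± 0.11 and NAP1L1, a histone chaperone, at 0.56 ± 0.11. Mitochondrial ribosomal proteins, which form a separate ribosome, took the opposite direction in these cells: 28 of 64 rose and 0 fell, beside 18.7% of all genes higher, MRPL13 by 1.09 ± 0.15 and MRPL51 by 0.96 ± 0.11. Among cells of 5000 to 10000 UMIs 3 of 62 rose and 0 fell, with a median of 0.24, where 428 of 4957 genes rose, so the count was no larger than for genes at large. In plasma against mature B cells 37 of 65 mitochondrial ribosomal proteins rose and 2 fell, beside 22.9% of all genes higher and 23.5% lower, MRPL41 by 1.70 ± 0.14 and MRPL53 by 1.64 ± 0.13. The median was 0.59, and within 5000 to 10000 UMIs it was 0.27, with 14 higher and 3 lower.

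Of the 24 ribosome biogenesis genes 12 were tested in cycling early B cells, where 6 rose and 0 fell beside 19.7% of all genes higher, GNL3, a nucleolar GTPase, by 1.48 ± 0.21 and NHP2 by 0.88 ± 0.17. Within 5000 to 10000 UMIs 3 were tested and 0 passed by edgeR. EIF4EBP1, the translation repressor under mTOR, was higher in plasma than in mature B cells by 2.68 ± 0.15 and in early than in mature B cells by 1.38 ± 0.14. MYC, a driver of ribosome production, was higher in meninges than in spleen in mature B cells by 0.99 ± 0.10, in germinal centre B cells by 2.38 ± 0.23 and in plasma cells by 1.51 ± 0.34, and lower in cycling than in resting germinal centre cells by 1.36 ± 0.28. Of the biogenesis genes tested, 3 of 23 were higher and 4 lower in meningeal mature B cells. Germinal centre B cells had 1 of 22 higher and 1 lower, and plasma cells 1 of 14 higher and 0 lower. Over all genes 21.9, 5.47 and 7.25% were higher and 17.9, 3.71 and 2.04% lower in these classes. In cytotoxic lymphocytes 3 of 22 were higher and 3 lower, MYC not among them. In cycling germinal centre cells 3 of 19 rose and MYC alone fell. LARP1 and MTOR passed narrowly as lower in meningeal mature B cells, by 0.26 ± 0.10 and 0.37 ± 0.14 (adjusted p = 0.0443 and 0.0482 by edgeR). There 17.9% of all genes were lower. Of the 6 TOP control genes, 0 were higher and 2 lower. Within 5000 to 10000 UMIs 1 of the 6 was higher and 1 lower, with a median of -0.004.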

How the data were processed

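Each file that the authors deposited is a matrix of raw UMI counts, whole numbers for a gene in a cell barcode. The submitters' processing notes name Cell Ranger and mm10. For macaque the genome reference was not stated in the labels, and its tables hold genes found in 3 or more cells. Barcodes with 300 or more genes and no more than 10% mitochondrial UMIs were used (Python 3.11.15, scanpy 1.11.5). Scrublet removed 173 mouse and 36 and 44 meningeal cells. It marked 0 and 2 spleen cells, so spleen doublets may remain. Whether the calling failed there or few doublets were present was not tested. Classes are gates on marker UMIs, which left 2830 mouse cells and 552 to 687 per macaque channel ungated. The gates were loosened once, after only the numbers of gated cells had been seen, and mature mouse B cells were split from immature ones by Fcer2a alone.

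Counts were summed per channel and class, for classes with at least 50 cells in every channel (tissues) or 20 (pairs), and tested over all genes with edgeR 4.0.16 in R 4.3.3 (filterByExpr, TMM, quasi-likelihood). DESeq2 1.42.0 was an alternative. Pairs within a channel used the channel as a block. The tissue and paired fits had 1 to 3 residual degrees of freedom, with 1 for cycling early B and cytotoxic cells. Their p-values therefore lean on variance shared over all genes tested, with prior degrees of freedom of 5.34 to 17.9 where finite. In simulated data for mature B cells of the tissues (10694 genes), 80.5% of 200 genes changed 2-fold were recovered, and 84.5% for cycling germinal centre cells (7204 genes). Of the calls, 11 of 172 and 10 of 179 fell on unchanged genes. The changed genes were picked at random and went both ways. Smaller changes, and a set of abundant genes moving in a single direction, were not simulated. Genes named are paralogue pairs, the stalk proteins with RPSA, RPS6, RPL5, RPL11 and RPS4X, the 8 largest rises and falls past the threshold with separate groups and a mean log2 CPM of at least 5, the 5 highest members of each species, the 5 most variable in mouse, and the 3 largest changes either way of each other gene list; a few of these are not reported here. Members and lists were chosen with earlier results of these data known. The cycling comparison of cytotoxic lymphocytes, both cycling interactions, and the alternatives by depth, scaling to all UMIs and crossed channel numbers were added after seeing the data.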

Additional observations from a re-analysis of the deposited data

Results flagged for a closer look

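The difference between tissues was not the same in 2 classes. For 56 of 62 members the meninges-to-spleen log2 fold change was lower in mature B cells than in cytotoxic lymphocytes by an interaction test in edgeR, with a median of -0.36 over members. Of all genes 13.8% passed, 8.12% as lower. Fewer members passed with scaling to all UMIs. At 5000 to 10000 UMIs 0 members passed, with 20 at an unadjusted p under 0.05 and a median of -0.42.

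The change with cycling also differed between classes. It was higher in early B cells than in germinal centre B cells for 59 of 62 members, with a median of 0.87, and higher than in cytotoxic lymphocytes for 59 of 62, with a median of 0.97. Of all genes, 5% were higher in the first test and 7.1% in the second. Cycling early B cells had median UMIs of 11652 and 11759 against 2817 and 2763 in resting ones, and at 5000 to 10000 UMIs 0 and 6 members passed in the same tests, with 34 at an unadjusted p under 0.05 in each and medians of 0.71 and 0.52.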

How the results depend on the processing

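Of the recomputed values 159 kept their direction and stayed close to the first value, 42 moved and 12 changed direction. The cause of these changes was not tested. Meninges minus spleen share, in percentage points: with gates on thinned cells -4.26 over all cells, 0.993 in plasma cells (meninges channel 2 alone against both spleen channels, since channel 1 had 45 cells) and -0.418 in cytotoxic lymphocytes, and as the median per cell 0.505, 3.74 (mature B), 4.64 (plasma) and 2.50 (cytotoxic). Plasma cells gave 2.42 without mitochondrial and immunoglobulin UMIs. The other settings by depth and scaling were chosen after seeing the data. Cells of 2000 UMIs or more gave -4.71 over all cells, -5.13 (mature B), 2.02 (plasma) and -1.07 (cytotoxic), and cells of 5000 to 10000 UMIs gave -4.65, -6.56 (mature B) and 1.73 (germinal centre). In that range cycling minus resting was -8.99 in germinal centre and -4.48 in early B cells. Plasma minus mature B was -9.85 as the median per cell, and early minus mature B -6.88 on thinned cells.

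Members passing over all cells of the tissues numbered 22 without the low-count filter, 42 by DESeq2, 49 scaled to all UMIs, 40 on thinned cells, 49 at 2000 UMIs or more and 48 at 5000 to 10000. In mature B cells they numbered 17 by DESeq2 and, mostly lower in meninges, 37, 20, 47 and 48 in the last 4 settings. Germinal centre cells gave 3 without the filter, plasma cells 17 scaled to all UMIs and cytotoxic lymphocytes 26 at 2000 UMIs or more. Cycling early B cells gave 30 by DESeq2 and 4 at 5000 to 10000 UMIs, all lower, and cycling cytotoxic lymphocytes 4. Plasma against mature B gave 59 scaled to all UMIs. The tissue interaction gave 35 scaled to all UMIs and 0 at 5000 to 10000 UMIs by edgeR (20 at an unadjusted p under 0.05; DESeq2 was not run), and the cycling interactions 0 (34) and 6.

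Leaving out 1 channel gave 2 to 49 over all cells (4, mostly higher, without meninges replicate 1), 0 to 53 in mature B (53, mostly lower, without spleen replicate 1; 0 also at an unadjusted p under 0.05), 7 to 16 in germinal centre and 16 to 39 in plasma cells, and 7 to 18 in plasma against mature B. With the replicate number as a block the tissue counts were 12, 8, 11, 30 and 42 (all, mature B, germinal centre, plasma, cytotoxic). Same-numbered channels correlated at -0.20, -0.21, -0.13, -0.062 and -0.13, which does not tell whether they hold the same animals. Crossed numbers, a pairing added after seeing these correlations, gave 14, 6, 14, 44 and 44. Thinned counts for germinal centre and plasma cells of the tissues and for cycling early B and cytotoxic cells, and the 5000 to 10000 range for plasma and cytotoxic cells of the tissues, had too few cells and gave no value, and pairs over 2 channels had no leave-out count.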
